A study of Mus musculus with 3 samples.

Results

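The genes described here have promoters rich in CpG, the dinucleotide of a C followed by a G, that were not open in mouse monocytes. A promoter counted as high-CpG when its ratio of observed to expected CpG within 500 bp of the most upstream coding transcription start site (TSS) exceeded 0.6. It counted as closed when no peak of the longer of 2 deposited peak lists lay within 1 kb of any coding TSS of the gene in any of 3 libraries. Of 20720 autosomal protein-coding genes, 10114 had a high-CpG promoter, and 1382 of these were closed. The background was 42.7% closed among all autosomal coding genes and 13.7% among those of high CpG content. A further 8226 high-CpG genes had such a peak in all 3 libraries and are called open, and 506 had one in 1 or 2 libraries and are called partly open. The genes were chosen by these promoter peaks and the CpG ratio, so both are a description and carry no test.

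DNase-seq measures where the nuclease DNase I cuts chromatin, and its peaks mark accessible DNA. All 3 libraries came from monocytes, blood phagocytes that mature into macrophages, taken as primary cells from adult female virgin B6CASTF1/J mice of 2 months. They formed 1 untreated group with no control, numbered as biological replicates 1, 2 and 4. The strain is a first-generation cross of C57BL/6J and CAST/EiJ, whereas sequence and coordinates here are those of C57BL/6J. One donor identifier is shared by all libraries and nothing shows that they came from separate animals, so an SD given below is the spread between libraries, which may be technical. The longer list held 54046, 42657 and 48980 peaks in replicates 1, 2 and 4, and the read depth behind them is unknown. Of 15 monocyte marker genes 12 had an open promoter, among them Csf1r, Spi1 and Cd14, while Ccr2, Ly6c2 and Fcgr1 did not. Of the 15, 1 was closed, against 42.7% of all autosomal coding genes. An open promoter was found at 1 of 10 T cell markers, 2 of 8 B cell markers and 1 of 8 erythroid markers. It was also found at 1 of 6 endothelial markers, 4 of 8 neuron markers and 0 of 8 hepatocyte markers.

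CpG is rare in most of the mouse genome because methylated cytosine mutates, and it persists in CpG islands, which overlap the promoters of most housekeeping genes and of many developmental genes. Islands at housekeeping promoters are typically free of nucleosomes in every cell type. At developmental genes they are typically held inactive by Polycomb complexes wherever the gene is off, and a small set at germline genes is silenced by DNA methylation in somatic cells. Neither Polycomb marks nor methylation were measured in these libraries.

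The following promoters show what such sequence looks like. They are the 200 bases upstream of the TSS, read 5′ to 3′ on the gene's strand from the GRCm38.p6 assembly of RefSeq, with every CpG in capitals. Barhl2 encodes a homeobox regulator of neural development, Tcf15 a bHLH regulator of somite formation, Tcfl5 a bHLH factor of the male germline and Kcnmb4 a subunit of a neuronal potassium channel. All 4 are closed. Barhl2 and Tcf15 have the highest CpG ratios among the closed developmental regulators whose sequence was considered for printing, and Tcfl5 and Kcnmb4 the highest among such germline and neuronal genes.
Barhl2 (chr5:106458167-106458366, - strand): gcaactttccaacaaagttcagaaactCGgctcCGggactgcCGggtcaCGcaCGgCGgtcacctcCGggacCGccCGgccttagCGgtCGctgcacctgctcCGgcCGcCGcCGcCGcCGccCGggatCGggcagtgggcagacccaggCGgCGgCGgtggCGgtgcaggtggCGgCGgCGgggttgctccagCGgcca
Tcf15 (chr2:152143361-152143560, + strand): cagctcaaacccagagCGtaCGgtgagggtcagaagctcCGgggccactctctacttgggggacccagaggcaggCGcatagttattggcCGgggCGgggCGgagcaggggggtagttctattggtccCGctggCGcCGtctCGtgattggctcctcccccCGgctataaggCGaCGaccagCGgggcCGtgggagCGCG
Tcfl5 (chr2:180642709-180642908, - strand): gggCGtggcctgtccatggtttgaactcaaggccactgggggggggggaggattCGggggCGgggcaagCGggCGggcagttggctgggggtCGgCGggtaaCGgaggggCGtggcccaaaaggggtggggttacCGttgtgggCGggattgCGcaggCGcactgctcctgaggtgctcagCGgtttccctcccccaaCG
Kcnmb4 (chr10:116473879-116474078, - strand): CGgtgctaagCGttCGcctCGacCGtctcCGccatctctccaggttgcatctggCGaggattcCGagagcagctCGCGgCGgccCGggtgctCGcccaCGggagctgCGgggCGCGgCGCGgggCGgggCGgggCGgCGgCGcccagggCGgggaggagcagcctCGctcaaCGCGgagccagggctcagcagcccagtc

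The stretch upstream of Barhl2 held 27 CpG in its 200 bases, that of Tcf15 18, that of Tcfl5 15 and that of Kcnmb4 28. Within 500 bp of the TSS the CpG ratio was 1.07 at Barhl2, 1.06 at Tcf15, 0.906 at Tcfl5 and 1.04 at Kcnmb4. A search of these stretches for the motif letters listed further on found the GC box once in Tcf15 and Tcfl5 and at 3 places in Kcnmb4. It found the CCAAT letters of NF-Y in Tcf15, 56 bases upstream of the TSS. The short E2F-type core TCCCGC was found in Tcf15 and Tcfl5, 75 and 57 bases upstream. No motif searched was found in the stretch of Barhl2. Around Tcf15 and Tcfl5 there were 2 distal peaks in each of the 3 libraries. Around Barhl2 and Kcnmb4 there was 0 in each, and the nearest peak in any library was 116495 and 106683 bp away.

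As a group the closed promoters were as CpG-dense at the TSS as the open ones, but sat nearer the lower limit of the ratio. The median CpG ratio was 0.736 (quartiles 0.664 and 0.824) at closed and 0.795 (0.713 and 0.881) at open promoters, and the median number of CpG within 500 bp was 72 and 72.5. The median GC content was 63.1% at closed and 61.0% at open promoters. The closed share fell with the ratio: 21.1% of genes with a ratio over 0.6 to 0.7 were closed, 13.8% over 0.7 to 0.8, 10.6% over 0.8 to 0.9, 8.22% over 0.9 to 1.0 and 7.93% above 1.0. Below the limit it was 39.2% over 0.4 to 0.6 and 88.7% at 0.2 or less. Nearest above the CpG limit were Neto1 (0.6004), Has2 (0.6007), Fam13c (0.6008), Rxfp2 (0.6012) and Gm3164 (0.6013). Among the nearest below it, of closed genes, were Has3 (0.5997), Grin2a (0.5997), Lrrc3b (0.5985) and Cryba2 (0.5984). For the peak distance, Fgf18 at 1001 bp and Vstm2l at 1013 bp lay just inside the rule. Adcyap1r1 at 989 bp, Gata3 at 981 bp and Tenm2 at 971 bp lay just outside. These genes at the peak distance were picked after their values were seen.

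Away from the TSS the closed promoters were the richer in CpG. From 1 to 2 kb on either side of the TSS the mean density was 1.94 CpG per 100 bp at closed and 1.37 at open promoters, and from 2 to 3 kb it was 1.39 and 1.08. The 180 closed developmental regulators had the highest density of the groups compared and averaged 3.32 CpG per 100 bp from 1 to 2 kb and 2.39 from 2 to 3 kb. The 63 open developmental regulators had 3.14 and 1.66, so in both states of this class the CpG-rich stretch reached past 1 kb. Closed neuronal genes had 1.87 and 1.18, near all closed promoters from 1 to 2 kb and nearer the open ones from 2 to 3 kb. The 23 closed germline genes had narrow CpG-rich stretches, with 6.18 CpG per 100 bp within 500 bp and 1.03 from 1 to 2 kb. The plot of CpG density around the TSS shows these shapes.

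**Figure D1:**
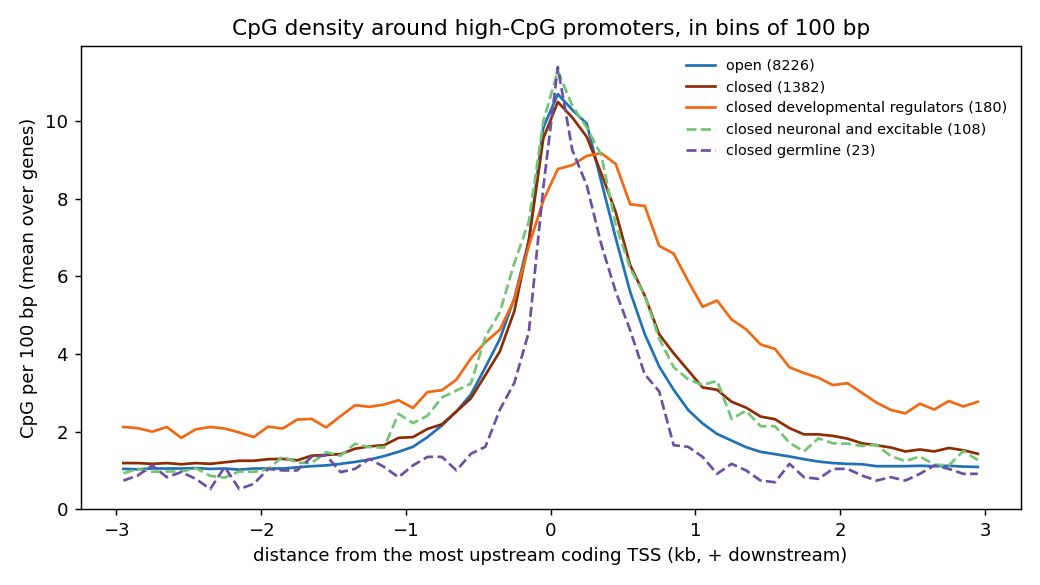
Mean number of CpG per 100 bp (vertical axis) in bins of 100 bp against the distance from the most upstream coding TSS in kb (horizontal axis), for open and closed high-CpG genes and 3 groups of closed genes, with the number of genes in brackets. Just downstream of the TSS closed and open promoters reach 10.5 and 10.7, while closed developmental regulators stay high far into the gene and closed germline genes drop fastest.

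Regulators of embryonic development formed the largest of the gene groups with a majority of closed promoters. Among 265 high-CpG genes of 7 classes of developmental transcription factors 180 (67.9%) were closed and 63 open, against the 13.7% closed among all high-CpG genes. T-box factors, which pattern mesoderm, were closed in 9 of 10 genes. The open one is Mga, which also carries a bHLH domain and is broadly expressed. Among the 9 is Tbx21, the T-bet regulator of type 1 lymphocytes, with 5, 6 and 8 distal peaks within 50 kb in replicates 1, 2 and 4. Eomes, its relative in lymphocytes and early embryos, was closed too. Sox factors were closed in 11 of 14 genes, among them Sox1, Sox2 and Sox11 of the neural lineage and Sox17 and Sox18 of endothelium. The 3 open ones were Sox4, Sox8 and Sox12. Other homeobox genes were closed in 85 of 109, with Alx4, Barhl2, Dlx6 and Cdx1 as examples. Forkhead genes were closed in 11 of 31, the lowest share of these classes. Closed were Foxa1 and Foxp2, while the open ones included Foxo1, Foxo3, Foxk1 and Foxp1. Tissue-specific bHLH genes such as Atoh1, which starts the formation of several kinds of neuron, were closed in 21 of 32, and the GATA, Zic and Gli zinc fingers in 23 of 46. A further 11 of those 46 were partly open. Mga, the other open members and Eomes were named after their states were seen.

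The Hox genes, which set position along the body axis, were closed in 20 of 23 high-CpG members. The open ones included Hoxa4 and Hoxb5, with CpG ratios of 0.919 and 0.877. Hoxa10 and Hoxc10 had promoter peaks in all libraries too but fell short of the CpG limit. Hoxa13 had 8, 5 and 5 distal peaks in replicates 1, 2 and 4. The tallest region that all libraries shared near it lay at chr6:52221701-52221920, inside Hoxa7 and 39.1 kb downstream of the Hoxa13 TSS. Its height, the cleavage density that the authors gave each peak on a scale they do not state, was 3.44, 2.84 and 4.01. Hoxb8 and Hoxb9 had 6, 5 and 5 distal peaks each, and their windows overlap, as those of all cluster members do. Hoxc12 and Hoxc13 had 0 in every library, although Hoxc10 was open 30 and 45.7 kb away.

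Genes of cell signalling were closed less completely, and those of adhesion and matrix more so than the developmental regulators as a whole. Secreted morphogens and growth factors of the Wnt, Bmp, Fgf and related families were closed in 27 of 47 high-CpG genes, their antagonists and modulators in 12 of 21, and axon guidance and Eph genes in 29 of 53. Bmp6, Bmp7 and Fgf3 were closed and had no distal peak in any library. Gdf7 had 6, 5 and 6, and Wnt10b 6, 3 and 6. Epha5, an ephrin receptor of the nervous system, lay farther from a peak than any other closed gene, at 1520 kb. Efna2, which encodes an ephrin ligand, had 9, 7 and 8 distal peaks. The tallest lay 19.5 kb upstream at chr10:80159781-80160120 with heights of 10.8, 8.59 and 14.4. Clustered protocadherins, the cell surface labels of single neurons, were closed in 18 of 22 and other cadherins in 20 of 27. These 2 classes had few distal peaks, at 0.259 ± 0.195 and 0.867 ± 0.189 per closed gene (SD, n = 3). Cdh1, the cadherin of epithelia, had 5, 4 and 5, and Cdh2, that of neurons and muscle, had 0 in each. Collagen and matrix genes were closed in 31 of 43.

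Neuronal and excitable genes were closed in 108 of 176 (61.4%). Receptors for glutamate, GABA, glycine and acetylcholine were closed in 18 of 23, synapse and vesicle genes in 38 of 58, potassium channels in 24 of 40, calcium and sodium channels in 16 of 31 and receptors for amines and peptides in 12 of 24. Of the 18 transmitter receptor genes 11 had no distal peak in any library, among them Gabra2, Gabra4 and Gabra5, and 18 of the 38 synapse genes had none, such as Cbln1 and Cplx1. Among channels, Kcna1, Kcnb2 and Kcnd3 had none, whereas Kcnh2 had 6, 6 and 5 and Trpv4 12, 9 and 14. Grin3b, a glutamate receptor subunit, had 9, 8 and 11. Over all closed members the mean number of distal peaks was 2.58 for calcium and sodium channels and between 1.04 and 1.26 for the 4 other classes.

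Germline and meiosis genes were closed in 23 of 47. The closed ones included Ddx4, Mael, Dmc1, Sycp1, Sycp3 and Tdrd1, which act in germ cells, and Asz1, Mov10l1 and Msh4 had no distal peak in any library. Tex12, a part of the synaptonemal complex, had 5, 6 and 5 distal peaks and Hormad1 6, 5 and 5. The 23 open ones included genes with known roles outside the germline, such as Spata2 and Tex261, as well as Dazl, Stag3 and Nanos1. Members other than those with the most or no distal peaks were named after their states were seen.

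Housekeeping classes stood at the other end. None of 73 cytosolic ribosomal protein genes, 74 mitochondrial ribosomal protein genes, 79 respiratory chain genes and 38 proteasome genes of high CpG content was closed. Of 90 genes of translation initiation and RNA polymerase 1 was, Eif3j2. In the window of Eif3j2 35.9% of 32-base words occurred elsewhere in the genome, so a missing peak and reads that could not be placed cannot be told apart. Replication-dependent histone genes were closed in 7 of 64 (10.9%) and KRAB-type and other Zfp genes in 17 of 204 (8.33%). Solute carriers, at 35 of 158 (22.2%), stood above the 13.7% closed among all high-CpG genes. Of the 1382 closed genes 874 belonged to none of the classes, out of 8633 such high-CpG genes (10.1%). The plot of promoter state by class sets these shares side by side.

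**Figure D2:**
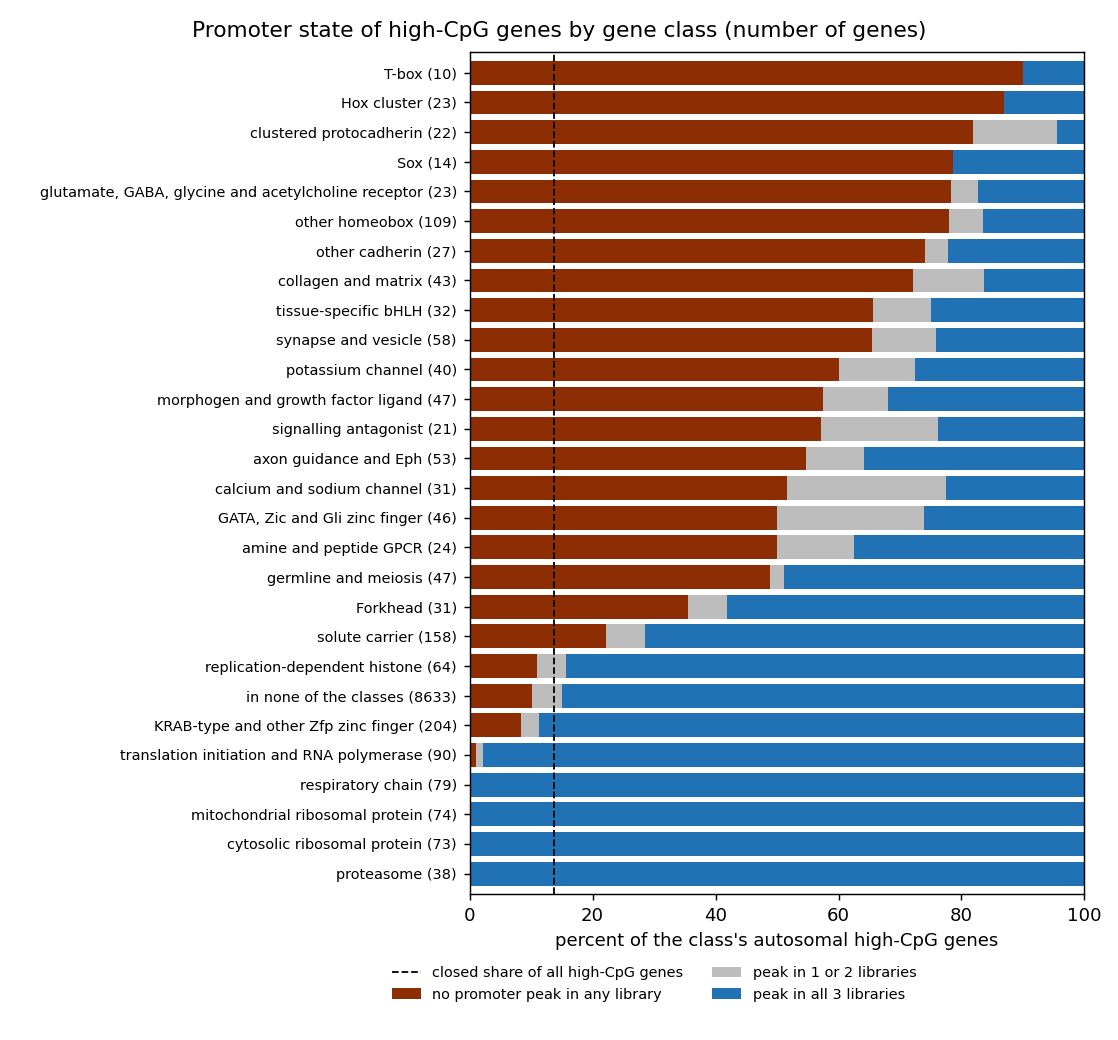
Share of the autosomal high-CpG genes of each class (vertical axis, number of genes in brackets) whose promoter had no peak in any library, a peak in 1 or 2, or a peak in all 3 (horizontal axis, percent). The dashed line marks the 13.7% closed among all high-CpG genes; developmental, adhesion and neuronal classes lie above it and housekeeping classes at or near 0.

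The sequence near the TSS also differed, in letters that the choice of genes did not use beyond CpG content. Motifs were searched as exact letters on both strands within 250 bp of the TSS. Motifs that activators of broadly active promoters bind were rarer at closed than at open promoters. The ETS core CCGGAAG, bound by GABP and its relatives, occurred at 110 of 1382 closed promoters, or 7.96% (95% Wilson interval 6.65 to 9.51), and at 28.1% (27.1 to 29.1) of open ones. It was found at 15.0% of all autosomal promoters. The YY1 letters AAGATGGCG occurred at 0.941% (0.551 to 1.60) and 6.33% (5.83 to 6.88), with 3.0% over all. The NRF1 letters GCGCATGCG occurred at 1.37% (0.882 to 2.14) and 5.32% (4.86 to 5.83), with 2.60% over all. The CREB letters TGACGTCA occurred at 1.45% and 4.95%, with 2.77% over all, and the ZNF143 letters ACTACAATT at 1 closed promoter and 0.863% of open ones, with 0.603% over all. At least 1 of these 5 motifs was present at 159 closed promoters (11.5%), 39.6% of open ones and 21.3% of all. These intervals cover counting error only, and neighbouring or duplicated genes can share a match.

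Other letters differed less or not beyond their intervals. The GC box GGGCGGGG of the SP and KLF factors occurred at 43.8% (41.2 to 46.4) of closed and 45.8% (44.7 to 46.9) of open promoters, against 28.2% over all. The short E2F-type core TCCCGC, which the longer E2F letters TTCCCGCC contain, occurred at 60.9% and 60.8%, against 38.2% over all. The CTCF letters AGGGGGCGC occurred at 3.84% and 3.87%, against 2.36% over all. The longer E2F letters occurred at 6.51% (5.33 to 7.94) and 8.21% (7.63 to 8.82), against 4.74% over all. Within CpG ratios of 0.8 to 1.0 their intervals did not overlap, at 4.41% (2.81 to 6.87) of closed and 9.03% (8.13 to 10) of open promoters. From 0.6 to 0.8 they stood at 7.45% and 7.39%. Rarer at closed promoters, with intervals that do not overlap, were also the BANP letters CTCGCGAG at 1.45% (0.939 to 2.22) and 3.38% (3.01 to 3.79), against 1.62% over all. The same held for the E-box TCACGTG at 5.14% (4.09 to 6.43) and 8.13% (7.56 to 8.74), against 5.35% over all, for the NF-Y letters CCAATCA at 8.47% and 12.9%, against 10.1% over all, and for the PU.1 letters GAGGAAGT at 2.10% and 3.48%, against 4.35% over all. Within CpG ratios of 0.6 to 0.8 the BANP intervals did overlap, at 1.28% (0.732 to 2.22) and 2.45% (2.02 to 2.96). From 0.8 to 1.0 those of the E-box (5.15% and 8.11%), NF-Y (9.31% and 11.8%) and PU.1 letters (1.72% and 2.97%) overlapped, with the order kept. TATAAA was commoner at closed promoters, at 8.83% (7.44 to 10.4) and 6.78% (6.26 to 7.35), against 16.2% over all. Within CpG ratios of 0.8 to 1.0 it stood at 6.13% and 6.14%, and within 500 bp of the TSS at 16.9% and 18.4%. Within CpG ratios of 0.6 to 0.8 the ETS core stood at 8.51% of 940 closed and 28.2% of 4248 open promoters, and from 0.8 to 1.0 at 7.11% of 408 and 28.6% of 3600. Within gene groups the gap was mostly smaller. The ETS core occurred at 6.11% of 180 closed and 11.1% of 63 open developmental promoters, at 1.85% of 108 closed and 11.1% of 45 open neuronal ones and at 21.7% of 23 closed and 39.1% of 23 open germline ones. Among signalling genes the order turned, at 3 of 68 closed and 1 of 39 open promoters. Among solute carriers the ETS core occurred at 2.86% of 35 closed and 23% of 113 open promoters. Among genes in none of the classes it was 9.27% of 874 and 27.9% of 7342, and among open housekeeping genes 42.3%. The NRF1 letters turned in order among germline genes, at 4 of 23 closed and 1 of 23 open promoters. The same was so for developmental genes, at 1 of 180 and 0 of 63. Their order held among signalling genes (1 of 68 and 2 of 39), solute carriers (0 of 35 and 3 of 113) and genes in none of the classes (1.37% and 5.37%). A match to the letters is not a bound site, and the absence of one says nothing about the factor.

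**Figure D3:**
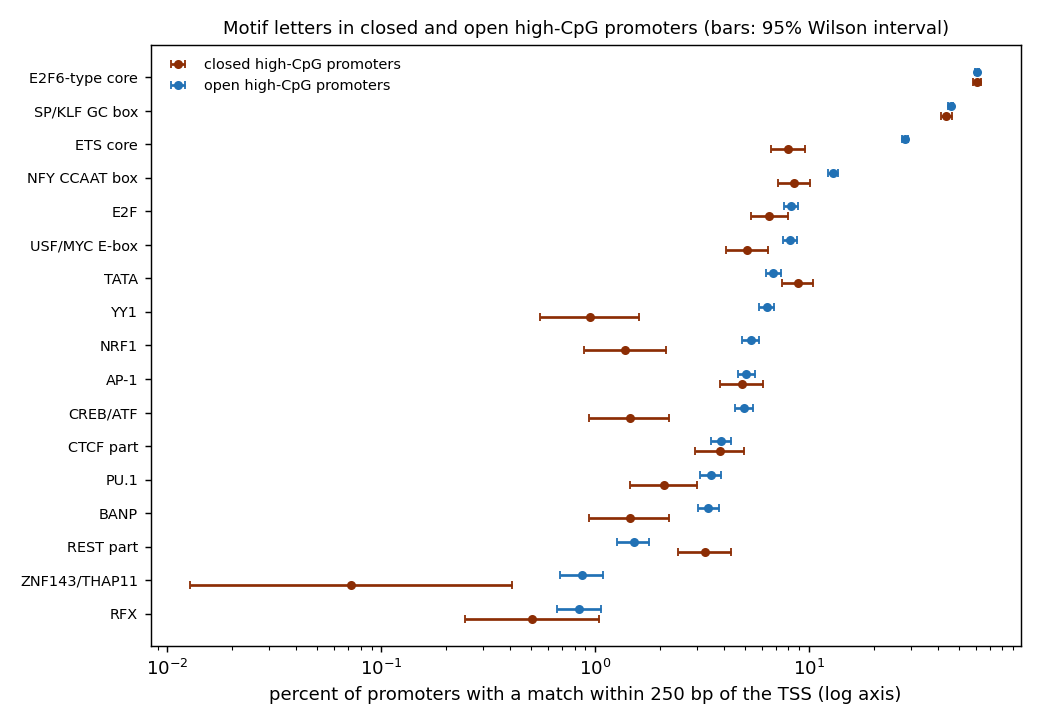
Percent of promoters with a match on either strand within 250 bp of the TSS (horizontal log axis) for 17 motifs (vertical axis) at closed and open high-CpG promoters, with 95% Wilson intervals. The ETS, YY1, NRF1, CREB and ZNF143 letters lie well to the left at closed promoters (7.96% against 28.1% for ETS), while the GC box and the TCCCGC core coincide.

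Letters of a neuronal repressor were also commoner at closed promoters. GGACAGCGC is part of the element bound by REST, the repressor of neuronal genes outside neurons. It occurred at 45 closed promoters, 3.26% (2.44 to 4.33), and at 1.51% (1.27 to 1.79) of open ones, against 1.12% over all. Among the 45 were Gad2, Gria2, Ryr3 and Pclo, and 7 of the 108 closed neuronal genes carried it. Of the 45, 3 also had the exact letters CAGCACC, the other part of the element, upstream of it: Calb1, which encodes a calcium buffer of neurons, Ttc9b and Ptprn2. Near matches, such as TAGCACC at Gad2 and Gria2, were not counted. The 9 others on duplicated sequence, such as Gm3020, are copies with nearly the same promoter. Without genes whose window shares 10% or more of its 32-base words with other places, the shares were 2.83% (2.05 to 3.89) of 1272 closed and 1.53% (1.28 to 1.83) of 7692 open promoters. Within CpG ratios of 0.8 to 1.0 the order did not hold, at 1.47% and 1.58%. The sites are shown with 26 bases each in the direction of the motif, the searched letters in capitals, and these genes were picked after the sites were seen.
Calb1 (chr4:15881288-15881313, + strand): cggagcagcaccgcGGACAGCGCccc
Ttc9b (chr7:27653936-27653961, - strand): agcatcagcaccggGGACAGCGCgcc
Ptprn2 (chr12:116485721-116485746, - strand): cgagcttcagcaccGGACAGCGCcac
Gm3020 (chr14:3652244-3652269, + strand): ctgcttcccagccgGGACAGCGCttc

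Duplicated sequence touched 110 of the closed genes (7.96%), those where 10% or more of the 32-base words of the promoter window occur elsewhere. Among open genes the share was 6.49%. Of the 110, 59 were duplicated over 50% or more of the window, 40 carry a symbol of the Gm type given to predicted genes, and 26 lie on chromosome 14. How the authors placed reads that match several positions is not given in the sources used here, so these genes share the limit stated for Eif3j2. They include 6 of the 7 closed histone genes and most closed Pcdha genes.

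Cleavage below the peak threshold was looked for in the deposited file of false discovery rates (FDR), which lists stretches of DNA with an FDR under 0.05. A stretch lay within 500 bp of the TSS at 37, 27 and 21 closed promoters in replicates 1, 2 and 4, or 2.68%, 1.95% and 1.52%. At open promoters the shares were 99%, 98.6% and 98.8%. At the closed promoters with a stretch, the median number of bases covered within 500 bp of the TSS was 15, 11 and 12. Their median best FDR was 0.0408, 0.0361 and 0.0330. Of the closed genes 1305 had a stretch in no library, 71 in 1, 4 in 2 and 2 in all 3. The 2 are Fhod3, an actin organizer of muscle, and the predicted gene Gm9955, which share the same stretch. No closed promoter held a deposited footprint, a short protected site within open DNA, against 97.4%, 96.7% and 96.3% of open ones. This is the same assay that chose the genes, so these values describe how far below the peaks they lay.

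The nearest peak was often remote. Its median distance from any coding TSS of the gene, taking the closest peak of any library, was 24.8 kb. It lay within 2 kb at 96 closed genes, over 2 to 5 kb at 149, over 5 to 10 kb at 181, over 10 to 50 kb at 513, over 50 to 100 kb at 202 and beyond 100 kb at 241. After Epha5 the farthest were Ctnna2 (1055 kb), which encodes a catenin of neurons, Asxl3 (962 kb), and the neighbours Tfap2d (831 kb) and Tfap2b (722 kb), regulators of neural crest and kidney. These 4 were named for their values.

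Distal peaks, those outside 1 kb of every coding TSS, were then counted within 50 kb of the most upstream TSS. The rule did not use them. Closed genes had 1.76, 1.30 and 1.60 distal peaks on average in replicates 1, 2 and 4, or 1.55 ± 0.233 (SD, n = 3). Open high-CpG genes had 3.44, 2.63 and 3.19, or 3.08 ± 0.413, and all autosomal coding genes 2.49 ± 0.337. The 2 groups did not overlap between libraries, and the difference of -1.53 ± 0.181 had the same sign in 3 of 3. The exact two-sided sign-flip permutation test over libraries gave p = 0.25, the smallest that 3 libraries allow. Per 10 kb of sequence outside the TSS windows the closed genes had 0.164 ± 0.0246 and the open ones 0.331 ± 0.0443 peaks (SD, n = 3). No distal peak in any library was found around 501 closed genes (36.3%) and 10.1% of open ones, with a background of 24.6% of autosomal coding genes. A distal peak in all 3 libraries was found around 642 closed genes (46.5%) and 76.6% of open ones, with a background of 62.0%. In a bulk sample, few open alleles and few open cells cannot be told apart.

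**Figure D4:**
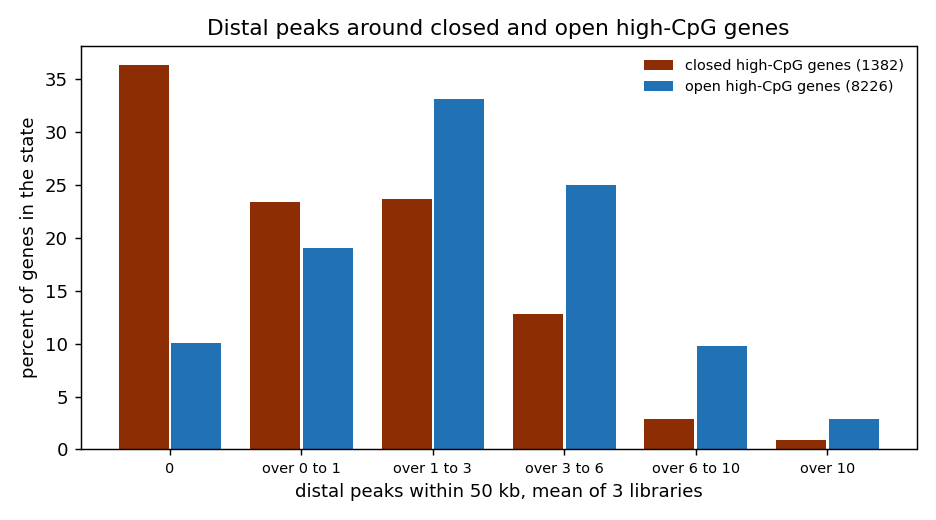
Percent of closed and of open high-CpG genes (vertical axis) by the number of distal peaks within 50 kb, as the mean of 3 libraries (horizontal axis). The closed genes peak at 0 with 36.3% and the open genes at over 1 to 3 with 33.1%, and 12 closed genes exceeded 10.

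The surroundings of the 2 groups differed in gene content. No other coding gene had its TSS within 50 kb of 51.9% (49.2 to 54.5) of closed and 24.4% (23.5 to 25.4) of open genes, and no open gene lay there for 70.2% and 33.1%. A coding TSS on the opposite strand lay within 1 kb at 3.04% and 21.2%, a measure that the rule affects, since a neighbour's peak opens both. The median gene spanned 36.0 kb in the closed and 25.5 kb in the open group. Distal peaks were therefore compared at equal gene content. With 0 other genes within 50 kb, the 717 closed genes had 0.718 ± 0.154 distal peaks and the 2008 open ones 2.70 ± 0.425 (SD, n = 3). With 1 to 2 others the means were 1.93 ± 0.287 and 2.79 ± 0.396, and with 3 to 5 they were 3.52 ± 0.378 and 3.68 ± 0.435. In the last of these the difference was -0.167 ± 0.0602, the same sign in 3 of 3 libraries but smaller than the SD of either mean. With 6 to 10 they were 3.47 ± 0.494 and 3.92 ± 0.402. The order widened again above 10, at 1.79 ± 0.211 for 19 closed and 5.0 ± 0.583 for 73 open genes, and those 19 include gene clusters that share 1 surrounding.

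When open neighbours alone were counted, a count chosen after the data were seen, the difference was limited to genes with few of them. Closed genes without an open gene within 50 kb, 970 in all, had 0.859 ± 0.162 distal peaks, against 2.71 ± 0.413 for the 2722 open genes without another open one (SD, n = 3). With 1 open neighbour the means were 2.54 ± 0.335 and 2.86 ± 0.401. With 2 the order turned, at 3.40 ± 0.446 for 112 closed and 3.16 ± 0.422 for 1370 open genes, and with 3 or more they were 4.09 ± 0.488 and 3.89 ± 0.428. The turned differences of 0.231 ± 0.105 and 0.20 ± 0.0937 had the same sign in 3 of 3 libraries but were smaller than the SD of the means. The sign-flip p was 0.25 in each of these strata, the smallest possible.

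**Figure D5:**
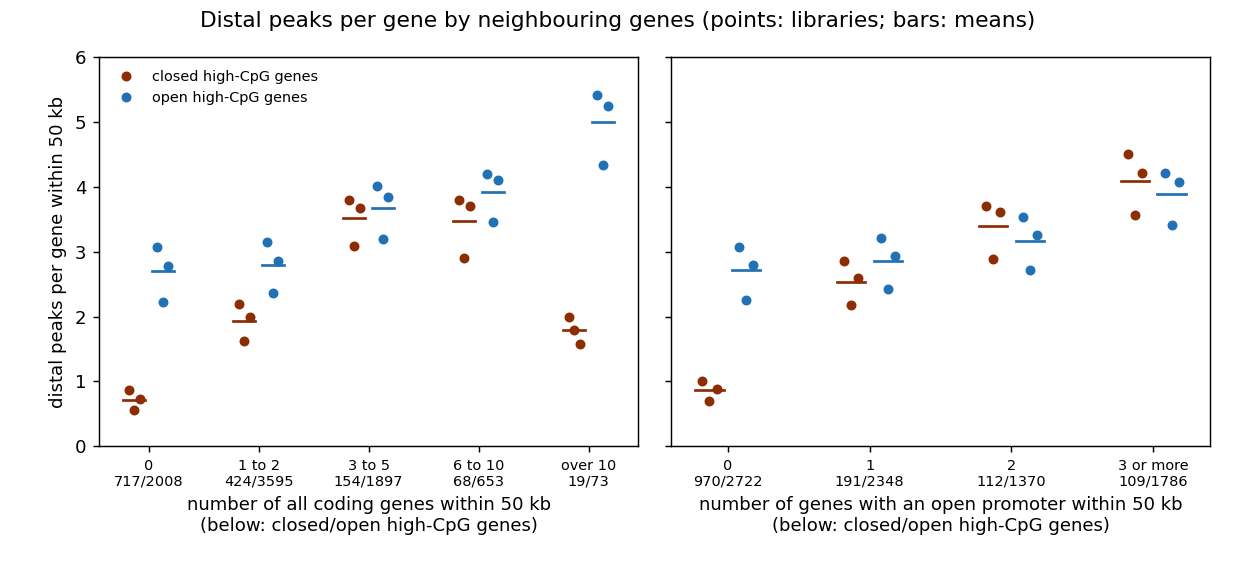
Mean number of distal peaks per gene within 50 kb (vertical axis) for closed and open high-CpG genes in each library (points, bars for the mean), by the number of all coding genes (left) and of genes with an open promoter (right) within 50 kb. With 0 neighbours the closed genes lie at 0.718 against 2.70, and with 2 open neighbours at 3.40 against 3.16.

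Many of the distal peaks near closed genes were also near open ones. On average 1942 ± 297 distal peaks per library, 6.36% of all autosomal distal peaks, lay within 50 kb of a closed high-CpG gene. Of these 63.7% ± 2.13 also lay within 50 kb of an open gene of any CpG content (SD, n = 3). The same share over all distal peaks is not given here, so whether 63.7% is unusual cannot be said. In replicates 1, 2 and 4 there were 34769, 25586 and 31190 autosomal distal peaks. Of those, 15827, 11878 and 14486 lay near an open but no closed high-CpG gene. For the peaks near closed genes, the nearest coding TSS was that of a closed high-CpG gene for 49.0% ± 1.21. It was that of an open gene for 34.7% ± 1.03 and of a closed gene of low CpG content for 13.2% ± 0.392. Peaks near a closed high-CpG gene but near no open gene of any CpG content were lower. Their median height ranked at percentile 36.8 ± 1.03 of all peaks of the library, promoter peaks included. For peaks near open but not closed high-CpG genes it was 47.1 ± 1.08. Between 5.71% and 6.21% of the peaks near closed genes lay within 1 kb of the start of a non-coding transcript, and between 6.15% and 6.80% of those near open genes.

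Of the 20 closed genes with the most distal peaks, taken at least 50 kb apart, 16 were in none of the classes. The same held for 874 of all 1382 closed genes. The 20 had means of 9.33 to 24.0, and 17 of them had an open gene within 50 kb. Ppm1n, a gene of the protein phosphatase family, had 26, 23 and 23. Its tallest shared distal region, at chr7:19319981-19320260 and 40.1 kb upstream, had heights of 7.56, 6.60 and 7.67, and the nearest open gene was Vasp at 8.25 kb, which encodes an actin regulator of migrating cells. Gm12184 had 17, 15 and 17, but 49.8% of the words in its window are not unique. The open gene Trim7 has a TSS 0.515 kb away, although the nearest peak lay 2755 bp from Gm12184. Sfi1, a centrosome gene, had 15, 17 and 14, and Tmem121 had 18, 10 and 14.

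Trpv4, a cation channel that senses warmth and stretch, had 12, 9 and 14. Its tallest shared region was the tallest of the 20, at chr5:114667581-114667780 and 9.26 kb upstream, outside any coding gene, with heights of 12.1, 10.4 and 17.2. Trim14, an adaptor of antiviral signalling, had 13, 9 and 10, with the tallest region 28.7 kb downstream inside the gene itself, at chr4:46507341-46507540, and heights of 4.33, 3.37 and 6.04. Selenon, a selenoprotein of muscle, had 9, 9 and 11 and its tallest region, also inside the gene, had heights of 5.76, 5.14 and 5.56. She, an adaptor protein gene, had 11, 9 and 9 with no open gene within 50 kb. The tallest region near Tmem121b, 20.1 kb downstream, lay inside Il17ra, the receptor of interleukin 17, which was the nearest open gene. Peak numbers near single genes could vary strongly between libraries: the homeobox gene Tlx1 had 7, 13 and 4 and Fgf18 2, 8 and 3.

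Most closed high-CpG genes lay apart from each other, yet a closed gene was next to another more often than an open gene was. The nearest other high-CpG gene was closed for 349 of the 1382 (25.3%), 8.14% of the open genes and 10.7% of all high-CpG genes. Distances differed too, since that nearest gene was a median 80.8 kb away from closed and 30.3 kb from open genes. Linking closed genes at most 50 kb apart left 1195 alone and gave 59 pairs, 7 runs of 3 and 8 runs of 4 or more, which hold 48 genes (3.47%). The largest run, of 12, spans 80.6 kb of chromosome 18 from Pcdha1 to Pcdha11, a symbol that 2 gene records carry. No open promoter lies inside it, and it held 0, 1 and 0 distal peaks. In 11 of its 12 genes between 14.9% and 28.7% of the words are not unique, so the limit stated for Eif3j2 holds there too. The next, of 8, spans 96.0 kb of chromosome 6 from Hoxa2 to Hoxa13, with Hoxa4 and Hoxa10 open inside and 5, 3 and 3 distal peaks. A run of 7 from Evx2 to Hoxd3 spans 52.4 kb of chromosome 2 with no open promoter inside and 1, 0 and 1 distal peaks.

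The remaining runs were of 4 and 5. Pcdhga5 to Pcdhga11 on chromosome 18 held 5, with 3 partly open genes inside and 0 distal peaks. Hoxc13 to Hoxc8 on chromosome 15 held 4, with Hoxc10 open inside and 1 distal peak in each library. The other runs lay in almost wholly duplicated sequence: 4 histone genes from Hist1h2bq to Hist1h2br on chromosome 13, 4 interferon-like predicted genes from Gm13289 to Gm13287 on chromosome 4, and 4 predicted genes from Gm10721 to Gm10715 on chromosome 9. In the last of these 3 of the 7 coding genes were open. These 3 runs share the limit stated for Eif3j2 and held 0 distal peaks in each library.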

How the data were processed

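DNase-seq of 3 monocyte libraries (replicates 1, 2 and 4) was analysed from the files the authors deposited. Per the labels and the deposited text files, positions are on mm10 and each library's files derive from its own filtered alignment, so peaks were called per library. Which aligner, peak caller and footprint tool were used is not stated there. Each deposited peak list gives a height, a signal of cleavage density computed by the authors, whose scale is not stated, and it was used to rank peaks within a library. A deposited file gives the FDR, of the p-value kind, computed by the authors and listed where under 0.05. Score, p-value and q-value columns of the deposited peak lists were constant and not used.

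From these files, overlaps of at least 1 bp between peaks and windows were counted with Python 3.11.15, numpy 2.4.6, pandas 2.3.3 and scipy 1.17.1, by functions tested on simulated data. Genes came from the GENCODE M21 basic annotation (release number 21), in which 21851 genes have a coding TSS on chromosomes 1 to 19, X and Y. Sequence came from GRCm38.p6. The CpG ratio is the number of CpG times the window length over the product of the numbers of C and G. Distal peaks were counted by their midpoint. Libraries were compared by an exact sign-flip permutation test, and genes were not treated as replicates. The members, classes, motifs and marker lists were chosen with earlier results of these data known. Genes were named by rule: the 20 closed genes with most distal peaks at least 50 kb apart, in each class with 3 or more closed members the 3 with most distal peaks and the first 3 by alphabet with none, the ends of the 8 largest runs, the open Hox genes, 5 genes on each side of the CpG limit, and the printed promoters. Genes named outside it are said to be so. Some genes and 1 sequence that the rule covers are not reported here. Alternatives covered the peak list, peak height, CpG limit, windows, duplicated sequence, each library left out, the linkage distance and the motif window.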

Additional observations from a re-analysis of the deposited data

How the results depend on the processing

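Over 15 results and 127 settings, 73 values stayed within the spread between libraries, the counting interval or, for counts, 1.5 times the value reported, 52 moved beyond it and 2 changed sign. Open neighbours only, exclusion of non-coding starts, exclusion of opposite-strand starts and motifs without duplicated sequence were chosen after seeing the data. No paired analysis was possible because all libraries form 1 group, which leaves no samples to pair; closed and open genes were compared within each library. Peak lists without read counts leave depth unknown, so a closed promoter is one without a peak at the depth of these libraries.

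With the shorter peak list the difference in distal peaks was -0.944, closed genes without a distal peak made up 47.7%, the next gene was closed for 26.8%, and the classes were closed at 76.2% (developmental), 73.9% (neuronal) and 0.565% (housekeeping). The difference was -1.2 with 0 neighbours and -0.0182 with 3 to 5, and 14% of closed promoters held a stretch below the FDR limit in a library on average. With the taller 50% of peaks 2181 genes were closed, and the same values were -0.758, 59.6%, 30.3%, 79.2%, 79.5% and 0.847%, with -0.838 at 0 neighbours and 25.6% for the stretches. A CpG ratio over 0.7 left 862 closed genes, with 18% for the next gene and 62.9% for the developmental class. A ratio over 0.5 gave 28.1%, 66.6%, 63.6% (neuronal) and 0.804% (housekeeping). Promoter windows of 500 bp and 2 kb gave 70.2% and 65.3% for the developmental class, 64.2% and 58% for the neuronal one, and -0.0935 and -0.443 with 3 to 5 neighbours, and housekeeping genes stood at 0.565% with 500 bp. Distal windows of 25 and 100 kb gave differences of -0.81 and -2.75, and 54.5% and 21.5% without a distal peak, and per 10 kb the difference was -0.165. The windows differ in size, so these values are not on the same scale as the main ones. Without duplicated sequence the next gene was closed for 22.6%, housekeeping genes at 0%, and the difference with 3 to 5 neighbours was -0.00394. With open neighbours only that difference turned to 0.132. A 500 bp motif window gave -23.1 percentage points for ETS and -6.54 for YY1. The REST difference turned to -0.113 within CpG ratios of 0.8 to 1.0. The causes of the shifts were not tested.

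Leaving out each library in turn gave 1430 to 1526 closed genes, -1.63 to -1.43 for the difference in distal peaks and 38.3% to 40.2% without a distal peak. It gave 25.6% to 25.7% for the next gene, 68.3% to 70.6% for the developmental, 63.6% to 64.8% for the neuronal and 0.282% to 0.565% for the housekeeping class. The difference was -2.12 to -1.81 with 0 neighbours and -0.183 to -0.122 with 3 to 5, and the stretches stood at 2.24% to 2.69%.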

Other observations

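By chromosome, the share of high-CpG genes that were closed ran from 8.99% on chromosome 17 (42 of 467 genes) and 9.77% on chromosome 11 (86 of 880) to 18.9% on chromosome 18 (54 of 285) and 19.9% on chromosome 14 (74 of 371). Of the 74 on chromosome 14, 26 lay in duplicated sequence, as did 14 of the 54 on chromosome 18, which carries the protocadherin clusters.

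Markers of other cell types among the closed high-CpG genes were Tcf7 of T cells, Pax5 of B cells, Map2 of neurons and Kdr of endothelium. Tcf7, Pax5 and Kdr were each the only high-CpG gene of their list, and Map2 was 1 of 3 high-CpG neuron markers. The 1 high-CpG erythroid marker was not closed, and 0 hepatocyte markers had a high-CpG promoter. Tcf7, a transcription factor, had 1, 2 and 1 distal peaks in replicates 1, 2 and 4, and Pax5, which maintains B cell identity, had 3, 2 and 1. Kdr, a receptor of vascular endothelial growth factor, had 4, 3 and 4, and Map2, a microtubule protein of dendrites, had 0 in each. Of the monocyte markers 4 had a high-CpG promoter, and 0 of these were closed.

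At partly open high-CpG promoters with a peak the median height was 0.528, 0.514 and 0.545 in replicates 1, 2 and 4, against 4.59, 3.83 and 5.92 at open ones. In the single libraries 1525, 1713 and 1674 high-CpG genes lacked a promoter peak, and 27, 119 and 100 lacked one in that library alone. Replicate 2, with the fewest peaks, had the most genes of both kinds.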
